A study of Canis lupus familiaris with 10 samples.

Results

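Interleukins and their receptors were described in canine cutaneous histiocytoma (CCH), a tumour of Langerhans cells, the dendritic cells of the epidermis, that mostly affects young dogs and often regresses as lymphocytes infiltrate it. The members were the panel genes whose symbol starts with IL and a digit. IL2RG, IL2RA, IL2RB, IL4R, IL7R, IL15RA and IL21R were left out. Of the 62 symbols of that form, 55 remained, out of 800 genes measured. They comprised 32 ligands, among them the receptor antagonist IL1RN, and 23 receptor chains or soluble binding proteins. IL33 was not among the genes analysed here.

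The study compared early with late CCH in archival tissue, measured by hybridisation to the nCounter Canine IO Panel, which counts colour-coded barcodes on probes without amplification. The 5 early tumours were assigned to group 1 and the 5 late tumours, described as enriched in lymphocytes, to group 3 of the histological scheme of Cockerell and Slauson. All 10 were formalin-fixed and paraffin-embedded (FFPE) samples of tumour tissue from privately owned dogs, and none was a pool. The early tumours came from 2 French Bulldogs, a Goldendoodle, a Terrier and a Boxer aged 0.5 to 5.0 years, with the age and sex of the Terrier not given. Of the other early dogs, 2 were neutered males, 1 was male and 1 female. The late tumours came from a Rottweiler, a Beagle, a Pug, a Bullterrier and a Jack Russell Terrier aged 1.5 to 9.0 years, of which 3 were male, 1 was a neutered male and 1 female. Per the study's supplement, each stage was run on its own measurement cartridge, late blocks had been stored longer and no extraction batch held both stages, so these cannot be told apart from stage.

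Interleukins are secreted signals between leukocytes and tissue cells. A cell answers to one only when it carries the matching receptor chains, and several chains are shared, such as IL1RAP among IL-1 family receptors, IL12RB1 between the receptors for IL-12 and IL-23, and IL6ST within the IL-6 family. Some members oppose the signal: IL1RN blocks the IL-1 receptor, and IL1R2, IL13RA2 and IL22RA2 bind ligand without passing on a full signal. Langerhans cells and macrophages produce several of these cytokines, whereas others, such as IL-2 and IL-21, come mainly from activated T cells.

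Values are normalized counts, scaled by housekeeping genes. Before that scaling, the gene counts recovered from the files summed to between 484696 and 823763 in early and between 945399 and 1253083 in late samples (exact two-sided permutation test, p = 0.00794, the smallest that 5 against 5 allows). Background was set in each sample at the mean plus 2 SD of its 8 negative control probes. On the normalized scale it averaged 32.6 ± 6.37 in early and 21.9 ± 2.99 in late samples (SD, n = 5 each, exact permutation p = 0.0238), and the mean of the negative probes was 0.58 higher in early samples on the log2 scale. DV200, the percentage of RNA fragments above a set length, was 68.5 ± 2.46 in early and 73.2 ± 2.09 in late samples (SD, n = 5 each, exact permutation p = 0.0238). These are the labels' values, and that of late 5 differs from the study's supplement, whose value was not used here, which bears on the fits with DV200 as a covariate. Of the Langerhans and dendritic cell markers, FLT3 and 2 others were above background in all 10 samples, but CD207, the Langerhans cell lectin, was so in only 2 of 10. All 6 T cell and all 5 B cell markers were lower in early CCH, by limma with Benjamini-Hochberg (BH) adjustment. In such bulk tissue, fewer cells of a type and less RNA per cell cannot be told apart.

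Of the receptors 65.2% and of the ligands 37.5% were above background in every tumour, against 74.6% of all panel genes. Of the 23 receptors, 15 were above background in all 10 samples, 7 in some and 1, IL5RA, in none. Of the 32 ligands, 12 were above background in all 10 samples, 17 in some and 3 in none, namely IL3, a growth factor of mast cells and other myeloid cells, IL11, an IL-6 family cytokine, and IL22, which acts on epithelia. The T helper 2 ligands IL4, IL5 and IL13 were above background in 3, 4 and 3 of 10 samples. The ligands IL10 and IL18 and the receptors IL10RA, IL13RA1 and IL17RA had a mean of at least 1000 normalized counts. Each gene is read through its own probe, so values of different genes are not ranked against each other here.

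Per sample, early CCH 1 to 5 had 20, 19, 20, 17 and 20 ligands above background and late CCH 1 to 5 had 24, 21, 20, 21 and 23. The mean was 19.2 in early and 21.8 in late samples, a difference of -2.6 (exact two-sided permutation test, p = 0.0317). Over the whole panel 683 genes were above background in early and 727.4 in late samples on average, a difference of -44.4 (exact permutation p = 0.00794). For ligands the order varied with the threshold, and no other threshold was tried for the whole panel. With the mean plus 3 SD of the negative probes the ligand order stayed the same. With a single threshold of 20 normalized counts the ligand difference was 4.4 in the other direction (exact permutation p = 0.0556). That threshold lay below the background of every early sample. Receptors above background numbered 20, 19, 20, 19 and 19 in early and 20, 21, 17, 20 and 21 in late samples, a difference in means of -0.4 (exact permutation p = 0.841).

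The stage comparison answered which interleukin genes differed between early and late CCH, with late CCH as the baseline. The fit was limma on log2(normalized count + 1) over 761 genes with a mean of at least 20, and so 49 members, 28 ligands and 21 receptors. The ligands IL3, IL11, IL19 and IL22 and the receptors IL5RA and IL22RA1 fell under that mean and were not tested. Of the 49, only IL13RA1 passed a Benjamini-Yekutieli (BY) adjusted p of 0.05 together with a 2-fold change, and it was higher in early CCH. Of all tested genes, that rule called 11.2%, made up of 1.97% with higher values in early and 9.2% with higher values in late CCH. By its own nCounter fit, the study reported no gene past its thresholds between these stages. By the BH adjustment at 0.05, 8 members passed. Early CCH was higher for 5, namely IL10, IL29L, IL24, IL13RA1 and IL10RA, and late CCH for 3, namely IL21, IL32 and IL12RB1. The other 41 did not pass. BH passed 35.7% of all tested genes, with 8.41% higher in early CCH and 27.3% in late CCH. Among the ligands 10.7% were higher in early and 7.14% in late CCH, and among the receptors 9.52% and 4.76%.

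The median log2 fold change, early over late, was 0.31 over the 28 tested ligands and 0.37 over the 21 tested receptors, against -0.18 over all tested genes. The ligand median was 0.029 once all values were lifted to the highest background of the 10 samples and -0.16 with the mean of the negative probes subtracted, against 0.24 and 0.34 for the receptors, so the sign of the ligand median depends on how background is treated. Positive values were found for 34 of 49 members, against 40.1% of all tested genes. This difference from the panel varied with signal level, as the plot of fold change against level shows. Between 20 and 50 normalized counts, the 20 members had a median of 0.33 and the 90 other genes 0.23. Between 50 and 200, it was -0.12 over 15 members and -0.23 over 154 other genes. From 200 to 1000 it was 0.44 over 9 members and -0.31 over 286 other genes, and from 1000 upwards 0.59 over 5 members and -0.35 over 182 other genes. In the lowest range both medians were above 0, and the 0.58 shift of the negative probes had the same sign. The part of that shift in these medians was not tested.

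**Figure D1:**
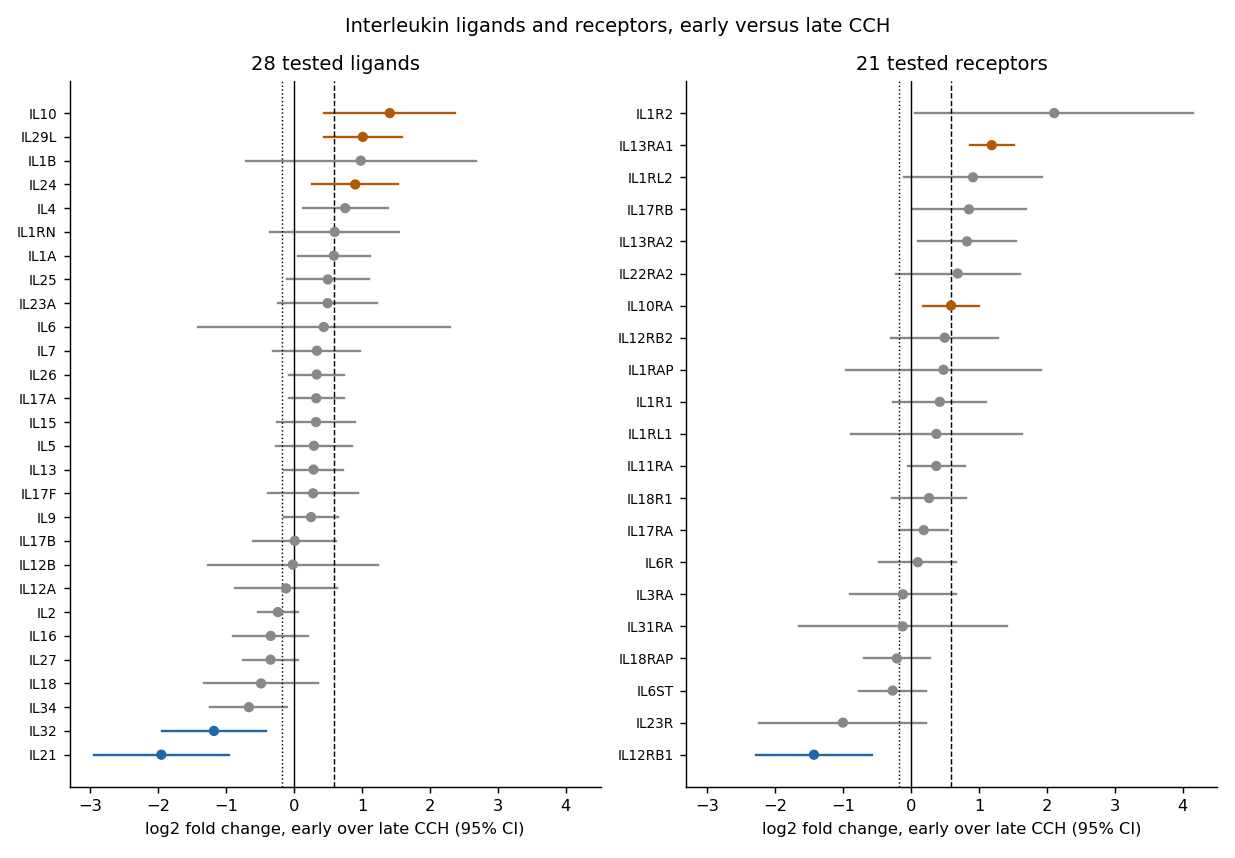
Log2 fold change of early over late CCH with its 95% confidence interval (limma, n = 5 per stage) for the 28 tested ligands on the left and the 21 tested receptors on the right; orange marks members higher in early and blue members higher in late CCH past the BH threshold, grey the others. The dotted line is the panel median of -0.18 and the dashed line the 0.58 shift of the negative probes; the intervals of IL1R2, IL6, IL1B and IL31RA are among the widest.

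**Figure D2:**
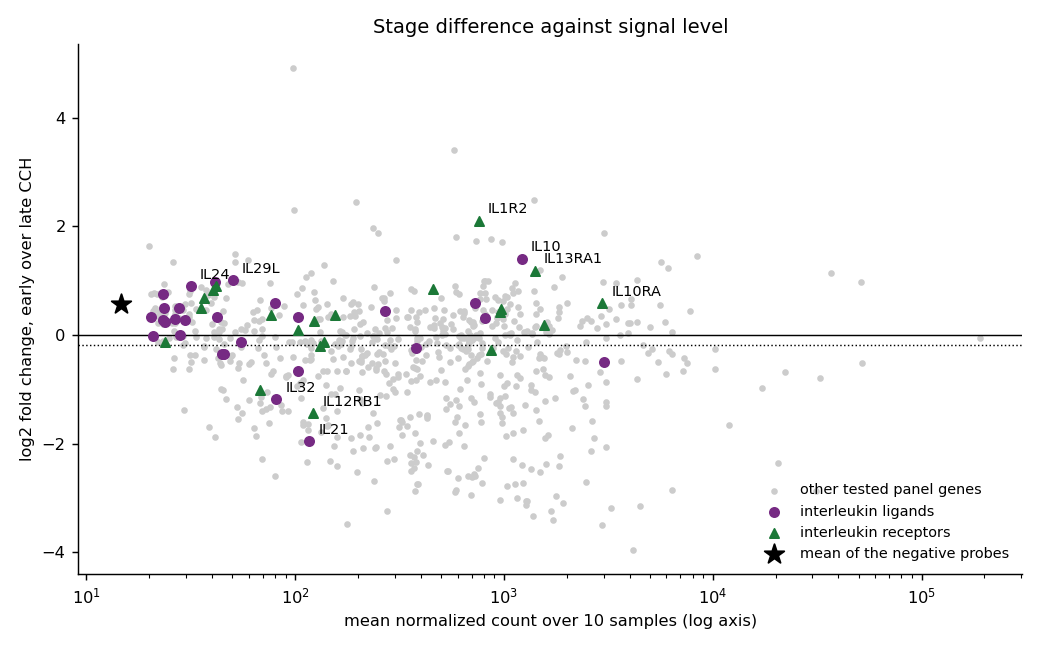
Log2 fold change of early over late CCH (vertical axis) against the mean normalized count over 10 samples (horizontal log axis) for the tested panel genes in grey, ligands as purple circles and receptors as green triangles, with the negative probe mean as a star. Many ligands lie below 50 normalized counts and above 0, while IL13RA1, IL10 and IL10RA lie above 1000.

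Among ligands, the IL-10 family held all 3 that were higher in early CCH: IL10, IL29L and IL24. IL10, the main anti-inflammatory cytokine of the family, had 1856, 2253, 964, 847 and 2945 normalized counts in early CCH 1 to 5 and 521, 731, 329, 472 and 1282 in late CCH 1 to 5. Early samples 1, 2 and 5 lay above every late sample, while early 3 and 4 lay below late 5. The mean was 1773 ± 883 (SD, n = 5) in early and 667 ± 373 in late CCH, which is a log2 fold change of 1.41 (SE 0.44; limma, BH adjusted p = 0.0300, BY adjusted p = 0.216). IL10 passed BH in 4 of the 10 fits that left out 1 sample. It was lost without early 1, 2 or 5 or without late 1, 3 or 4. With array weights it missed the threshold at 1.19 (limma, BH adjusted p = 0.0531), and with DV200 as a covariate its log2 fold change was 0.33 and did not pass.

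IL29L, named for its likeness to IL-29, a type III interferon, gave 48.7, 49.2, 64.3, 104 and 73.9 normalized counts in early CCH 1 to 5. In late CCH 1 to 5 the values were 28.5, 47.6, 32.4, 28.8 and 25.9. The stages did not overlap, by a small gap between early 1 and late 2. On the log2 scale it was 1.01 higher in early CCH (SE 0.26; limma, BH adjusted p = 0.0134, BY adjusted p = 0.0967), and it passed BH in all 10 fits without 1 sample. With DV200 as a covariate the difference was 1.19 and did not pass (limma, BH adjusted p = 0.114). These values rest on few barcodes, with 29 to 63 recovered counts in early and 23 to 43 in late samples. With all values raised to the highest background of the 10 samples, the log2 fold change was 0.70 (limma, BH adjusted p = 0.0244).

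IL24, an IL-10 family cytokine that acts on keratinocytes, gave 24.3, 44.1, 45.9, 39.5 and 53.1 normalized counts in early and 13.6, 29.9, 16.2, 20.4 and 30.2 in late CCH 1 to 5. It was above background in all 5 early and in 2 late samples, and early 1 lay below late 2 and late 5. The log2 fold change was 0.90 (SE 0.28; limma, BH adjusted p = 0.0326). Before scaling, the recovered counts of the stages overlapped, at 23 to 28 in early and 11 to 28 in late samples. On the common background floor the log2 fold change was 0.20 (limma, BH adjusted p = 0.0818), and IL24 passed BH in 3 of 10 fits without 1 sample. With DV200 as a covariate it lay at 0.65 (limma, BH adjusted p = 0.352), and with the negative probe mean subtracted at 1.29 (limma, BH adjusted p = 0.0631). Of the rest of the family, IL26 had a log2 fold change of 0.33 (limma, BH adjusted p = 0.183), and IL19 and IL22 lay under the filter. In the fit without a filter IL22, at or below 28.8 normalized counts and not above background in any sample, had 0.77 (limma, BH adjusted p = 0.0466) and IL19 0.23 (limma, BH adjusted p = 0.8).

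Among ligands of the common gamma chain receptors, IL21 was higher in late CCH. IL21, a cytokine of follicular helper T cells that drives B cells and cytotoxic cells, had 20.1, 76.3, 71.6, 47.8 and 26.5 normalized counts in early CCH 1 to 5. Late CCH 1 to 5 had 89.3, 130, 169, 213 and 322. Every late sample lay above every early one, and early 1 and early 5 lay below background. The log2 fold change was -1.96 (SE 0.45; limma, BH adjusted p = 0.00879, BY adjusted p = 0.0634), and IL21 passed BH in all 10 fits without 1 sample. With DV200 as a covariate it was -1.79 and did not pass (limma, BH adjusted p = 0.155). With the mean of the negative probes subtracted it was -2.94 (limma, BH adjusted p = 0.0143). Beside it, the summed level of the 6 T cell markers was 385 to 7229 in early and 9775 to 14096 in late CCH, with the same lowest early samples, early 1 and early 5. The order of the other samples differed. Early 2, the highest early sample for IL21, had a marker sum of 1708, against 7229 in early 3. Late 1, the lowest late sample for IL21, had 13340, and late 5, the highest, had 11063. The part of T cell content in the IL21 difference was not tested.

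IL2, the T cell growth factor whose gene lies 1 protein-coding gene from IL21 in the dog annotation, did not pass BH. It gave 296, 356, 362, 382 and 337 normalized counts in early and 419, 400, 410, 404 and 407 in late CCH 1 to 5. The stages did not overlap, and the log2 fold change was -0.24 (SE 0.13; limma, BH adjusted p = 0.178), or -0.06 relative to the panel median. Its sign turned with geometric mean, total and quantile scaling, to 0.15, 0.028 and 0.32. IL15, which maintains natural killer and memory T cells, had 906 ± 253 (SD, n = 5) in early and 711 ± 176 in late CCH, with the lowest value, 480, in early 1 and the stages overlapping (log2 fold change 0.32; limma, BH adjusted p = 0.351). IL7 and IL9, growth factors of lymphocytes and mast cells, had log2 fold changes of 0.34 and 0.25 (limma, BH adjusted p = 0.388 and 0.305). IL4 had 0.75 (limma, BH adjusted p = 0.0606), at 29.6 in early and 17.2 in late CCH on average, where it was above background in only 3 of 10 samples.

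No tested ligand of the IL-1 family passed BH. IL1A averaged 97.3 ± 30.0 normalized counts in early and 62.2 ± 7.10 in late CCH (SD, n = 5 each), with early 1 at 59.2 inside the late range (log2 fold change 0.59; limma, BH adjusted p = 0.0808). IL1B, whose gene is its direct neighbour, was above background in 5 of 10 samples, with 29.6, 188, 18.4, 13.2 and 37.9 in early and 7.44, 73.0, 9.71, 12.1 and 22.7 in late CCH 1 to 5. One sample per stage, early 2 and late 2, stood above the rest (log2 fold change 0.98, SE 0.76; limma, BH adjusted p = 0.340). IL1RN, the receptor antagonist, had 1118, 828, 358, 596 and 1542 in early and 499, 954, 308, 373 and 702 in late CCH 1 to 5. The stages overlapped, with a log2 fold change of 0.60 (limma, BH adjusted p = 0.297). IL18, an inflammasome product that induces interferon gamma, ran from 1527 to 3728 in early and from 1792 to 6710 in late CCH (log2 fold change -0.49; limma, BH adjusted p = 0.335).

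None of the IL-6, IL-12 and IL-17 family ligands passed BH. IL6, a pleiotropic inflammatory cytokine, had 203, 1496, 108, 51.1 and 83.4 normalized counts in early and 104, 323, 65.9, 173 and 81.0 in late CCH 1 to 5. Sample 2 was the highest of both stages, and the log2 fold change of 0.44 (SE 0.84; limma, BH adjusted p = 0.712) became -0.35 without early 2. IL12A and IL12B, the subunits of IL-12, had log2 fold changes of -0.12 and -0.02 (limma, BH adjusted p = 0.818 and 0.983), and the sign of both turned under other scalings. IL12B was above background in 2 of 10 samples. IL23A, which pairs with IL12B to form IL-23, had 0.49 and IL27 had -0.35 (limma, BH adjusted p = 0.268 and 0.167). Of the IL-17 family, IL17A had 36.0 to 55.1 in early and 32.4 to 43.2 in late CCH, above background in all 10 samples (log2 fold change 0.33; limma, BH adjusted p = 0.186), and IL17B, IL17F and IL25 lay at 0.01, 0.28 and 0.50.

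IL32 and IL34 belong to no larger family. IL32, a pro-inflammatory product of T and natural killer cells, gave 19.0, 49.2, 62.4, 75.8 and 53.1 normalized counts in early and 108, 94.0, 153, 93.8 and 104 in late CCH 1 to 5. The stages did not overlap, and early 1 lay below background. Its log2 fold change was -1.18 (SE 0.34; limma, BH adjusted p = 0.0233, BY adjusted p = 0.168), past BH in all 10 fits without 1 sample. The DV200 covariate left -0.96, which did not pass (limma, BH adjusted p = 0.281). IL34, a ligand of the colony stimulating factor 1 receptor made by keratinocytes and needed for Langerhans cells in the skin, had 54.0 to 95.5 in early and 86.4 to 187 in late CCH. Its log2 fold change of -0.67 did not pass (SE 0.26; limma, BH adjusted p = 0.0654). IL16, a T cell chemoattractant, had -0.34 (limma, BH adjusted p = 0.303).

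Among receptors, IL13RA1 differed most firmly between the stages. It is the chain that binds IL-13 and joins IL4R in a receptor shared by IL-4 and IL-13. Early CCH 1 to 5 had 2289, 1520, 1828, 2079 and 2041 normalized counts, and late CCH 1 to 5 had 749, 947, 925, 845 and 792. The lowest early sample stood well above the highest late one. The mean was 1951 ± 291 (SD, n = 5) in early and 852 ± 84.5 in late CCH, with a log2 fold change of 1.19 (SE 0.14, 95% confidence interval 0.87 to 1.51; limma, BH adjusted p = 0.000753, BY adjusted p = 0.00543). It was called in all 10 fits that left out 1 sample, with log2 fold changes from 1.13 to 1.27. With the replicate number as a block it was not called, at 1.19 (limma, BY adjusted p = 0.0941). With DV200 as a covariate its log2 fold change was 1.25 (limma, BH adjusted p = 0.0290), and it was then the sole member past BH, in a fit where 5.91% of all tested genes passed, but not past BY (limma, BY adjusted p = 0.21). Of the 6 tested Langerhans and dendritic cell markers, 2 were higher in early and 1 in late CCH by BH. The part of such cells in the IL13RA1 difference was not tested.

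The ligands and the other chains of this system were near background or did not pass. IL13 had a log2 fold change of 0.29 and 25.7 normalized counts on average in early against 20.9 in late CCH (limma, BH adjusted p = 0.279). IL13RA2, a decoy for IL-13, had 24.3, 44.1, 51.4, 54.4 and 89.1 in early and 21.1, 38.7, 32.4, 25.1 and 21.6 in late CCH 1 to 5. Only early 1 fell inside the late range, and the log2 fold change of 0.82 did not pass (SE 0.32; limma, BH adjusted p = 0.0714). IL3RA, the chain that binds IL-3, had -0.12 (limma, BH adjusted p = 0.822).

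IL10RA, the ligand-binding chain for IL-10, was higher in early CCH together with its ligand. The values were 3715, 3364, 3014, 2781 and 4930 normalized counts in early and 2185, 2106, 3102, 1974 and 2380 in late CCH 1 to 5. Late 3 lay above early 3 and early 4, and the other late samples lay below every early one. The log2 fold change was 0.59 (SE 0.19; limma, BH adjusted p = 0.0334, BY adjusted p = 0.241). IL10RA passed BH in 4 of 10 fits without 1 sample, and was lost without early 1 or 5 or without late 1, 2, 4 or 5. With DV200 as a covariate it lay at 0.42 (limma, BH adjusted p = 0.36). IL22RA2, the soluble binding protein of IL-22, had a log2 fold change of 0.69 (limma, BH adjusted p = 0.218).

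IL12RB1, the shared chain of the IL-12 and IL-23 receptors, was the single receptor higher in late CCH. It had 24.3, 110, 101, 64.2 and 55.0 normalized counts in early and 197, 217, 124, 159 and 172 in late CCH 1 to 5. The stages did not overlap, and early 1 lay just above its background of 21.8. Its log2 fold change was -1.43 (SE 0.38; limma, BH adjusted p = 0.0163, BY adjusted p = 0.118), past BH in all 10 fits without 1 sample. With DV200 in the fit it was -1.27 and did not pass (limma, BH adjusted p = 0.219). Its partners were not past BH. IL23R, the IL-23 partner, had 8.46, 78.0, 42.2, 52.7 and 62.5 in early and 99.2, 48.7, 131, 100 and 52.9 in late CCH 1 to 5 (log2 fold change -1.0, SE 0.55; limma, BH adjusted p = 0.183), and IL12RB2, the IL-12 partner, had 0.50 (limma, BH adjusted p = 0.300). As for IL21, the T cell markers were lowest in early 1, and their part in the IL12RB1 and IL32 differences was not tested.

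**Figure D3:**
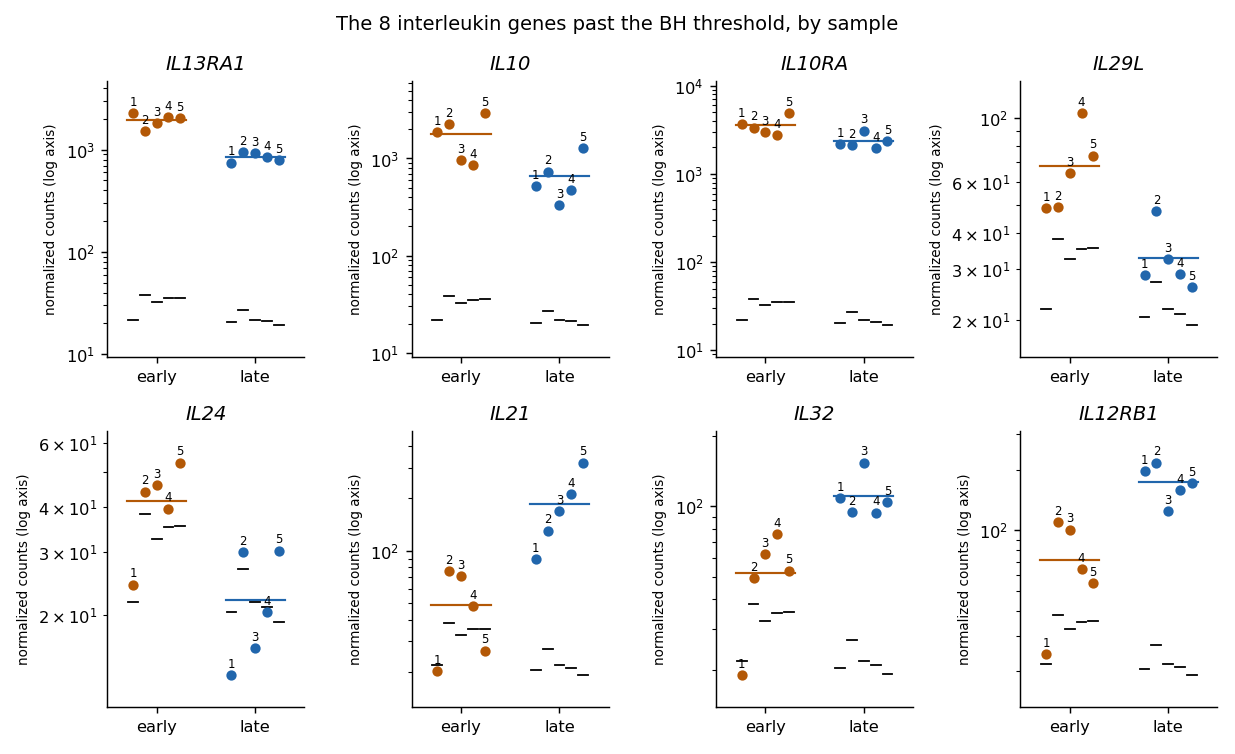
Normalized counts (log axis) in each early (orange, samples 1 to 5) and late (blue, samples 1 to 5) CCH for the 8 members past the BH threshold; coloured lines are stage means and black ticks each sample's background. The stages do not overlap for IL13RA1, IL29L, IL21, IL32 and IL12RB1, and IL21 in early 1 and 5, IL32 in early 1 and IL24 in late 1, 3 and 4 lie below background.

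In the deposited values the stages did not overlap for 2 members with higher values in early CCH, IL29L and IL13RA1, and for 4 with higher values in late CCH, IL21, IL32, IL2 and IL12RB1. Of these, IL2 changed sign under the other scalings. Over all tested genes, 5.39% had non-overlapping stages with higher values in early and 19.2% with higher values in late CCH.

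The IL-1 receptor family had the highest fold change of any tested member, IL1R2, which varied widely and did not pass BH in the deposited values. In the dog annotation 6 of its genes follow each other with no protein-coding gene between them, in the order IL18RAP, IL18R1, IL1RL1, IL1RL2, IL1R1 and IL1R2. IL1R2, the decoy receptor for IL-1, had 1566, 2370, 182, 109 and 2389 normalized counts in early and 104, 338, 144, 80.8 and 283 in late CCH 1 to 5. Early 1, 2 and 5 stood far above all late samples, while early 3 and 4 lay within the late range. The log2 fold change was 2.11 (SE 0.92, 95% confidence interval 0.06 to 4.16; limma, BH adjusted p = 0.101). It passed BH with geometric mean scaling at 2.50, with quantile normalization at 2.60 and without early 4 at 2.78 (limma, BH adjusted p = 0.0496, 0.0446 and 0.0245), and lay at 0.68 with DV200 as a covariate (limma, BH adjusted p = 0.772). Its direct neighbour IL1R1, the signalling receptor, had 643, 1963, 855, 934 and 1152 in early and 817, 810, 622, 1188 and 550 in late CCH 1 to 5. The stages overlapped, and the fold change was 0.42 on the log2 scale (SE 0.31; limma, BH adjusted p = 0.305).

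IL1RAP, the accessory chain, had 1838, 1806, 312, 428 and 1254 normalized counts in early and 511, 1735, 236, 488 and 1038 in late CCH 1 to 5. Late 2 lay among the high early samples and late 5 just below them, and the log2 fold change was 0.48 (SE 0.65; limma, BH adjusted p = 0.599). IL1RL1, the receptor of IL-33, ran from 71.6 to 445 in early and from 56.2 to 262 in late CCH (log2 fold change 0.37; limma, BH adjusted p = 0.640). IL1RL2, the IL-36 receptor, had 0.91 (SE 0.46; limma, BH adjusted p = 0.148). The IL-18 receptor chains IL18R1 and IL18RAP had 0.26 and -0.21 (limma, BH adjusted p = 0.419 and 0.485), the latter with a sign that turned under the other 3 scalings.

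Several members varied widely among the early tumours. Early samples 1, 2 and 5 were the 3 highest early samples for 7 of the 49 tested members (14.3%), namely IL10, IL1B, IL1R2, IL1RAP, IL1RN, IL10RA and IL31RA, against 11.6% of all tested genes. Late 2 and late 5 were in addition the 2 highest late samples for the first 5 of these (10.2% of tested members), against 2.1% of all tested genes. IL31RA, the receptor chain for the itch cytokine IL-31, had 161, 356, 36.7, 28.0 and 180 normalized counts in early and 171, 173, 52.9, 83.6 and 127 in late CCH 1 to 5 (log2 fold change -0.12; limma, BH adjusted p = 0.903; the sign turned under the other 3 scalings). Of the 5 macrophage markers, CD14 and CD68 had the same 3 highest early samples, and CD163, MRC1 and MSR1 did not. CD14, a co-receptor for bacterial lipopolysaccharide, had 1061, 1600, 215, 165 and 913 in early and 1083, 868, 347, 716 and 799 in late CCH 1 to 5, so its 2 highest late samples were late 1 and late 2. The 5 markers summed to 1753 to 5718 in early and 2762 to 5810 in late CCH, and each was above background in all 10 samples. The 4 neutrophil markers summed to 37770, 28289, 1239, 19781 and 1885 in early and 1496, 35430, 378, 3501 and 5270 in late CCH 1 to 5, highest in early 1, 2 and 4 and in late 2 and 5. By gene, S100A8, S100A9 and S100A12 had these highest samples, but CXCR2 did not. CXCR2 had 58.2, 98.4, 34.9, 28.0 and 77.7 in early CCH 1 to 5, highest in early 1, 2 and 5. Its 2 highest late samples were late 1 and late 2. The part of macrophage or neutrophil content in these values was not tested. The genes were brought together here after their values were seen.

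**Figure D4:**
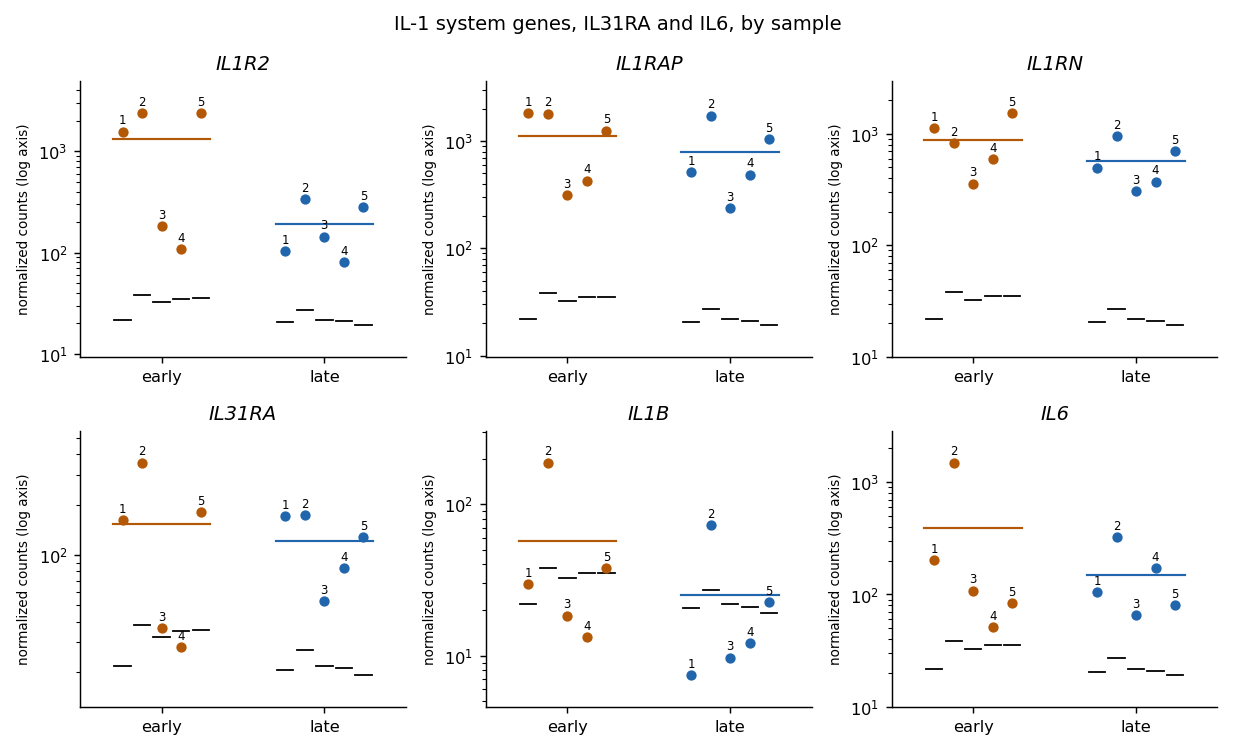
Normalized counts (log axis) by sample for IL1R2, IL1RAP, IL1RN, IL31RA, IL1B and IL6 in early (orange) and late (blue) CCH, with numbered samples, coloured stage means and black ticks for each sample's background. Early 1, 2 and 5 are the highest early samples for the first 4 genes, and sample 2 is the highest of both stages for IL1B and IL6.

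The remaining receptors did not pass BH. IL17RA, the common chain of IL-17 receptors, averaged 1667 ± 336 normalized counts in early and 1453 ± 188 in late CCH (SD, n = 5 each; log2 fold change 0.19; limma, BH adjusted p = 0.391). IL17RB, which binds IL-25, had 479, 407, 397, 987 and 642 in early and 429, 236, 567, 153 and 289 in late CCH 1 to 5, a log2 fold change of 0.85 that did not pass (SE 0.38; limma, BH adjusted p = 0.105). In the IL-6 family, IL6R had 0.10, IL11RA 0.37 and the shared signalling chain IL6ST -0.27 as log2 fold changes (limma, BH adjusted p = 0.793, 0.153 and 0.359). IL6ST, the direct neighbour of IL31RA in the genome, had 800 ± 255 in early and 930 ± 92.9 in late CCH (SD, n = 5 each), and its sign turned with the geometric mean and quantile scalings.

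The scaling moved the panel as a whole and with it the members. Under the deposited housekeeping scaling the panel median was -0.18, under scaling to the geometric mean of the tested genes 0.21, to their total 0.09 and after quantile normalization 0.21. Calls by BY and 2-fold split into 15 with higher values in early and 70 in late CCH in the deposited values, and into 42 and 34, 30 and 41, and 47 and 34 under the other 3. Members higher in early CCH by BH went from 3 ligands and 2 receptors to 13 and 10, 9 and 5, and 8 and 9, as the panel's count went from 64 to 193, 154 and 180, while 2 ligands and 1 receptor were higher in late CCH under all 4. The sign of 10 members turned under at least 1 scaling, among them IL16, IL17B, IL27 and IL3RA, but the 8 members past BH in the deposited values kept sign and passed BH under all 4 scalings. Relative to the panel median, ligands lay at 0.48 and receptors at 0.55 under both the deposited and the geometric mean scaling, and at 0.07 and 0.61 after quantile normalization. Relative to it in the deposited values, IL13RA1 lay at 1.36, IL10 at 1.58, IL10RA at 0.76, IL12RB1 at -1.25, IL32 at -1.01 and IL21 at -1.78.

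Downstream of the receptors, a list of JAK kinases, STAT factors, the suppressors SOCS1 and CISH, IL-1 receptor signalling proteins and inflammasome genes held 23 tested panel genes. Of these, 10 were higher in late CCH and 1 in early CCH by BH, against 27.3% and 8.41% of all tested genes, with a median log2 fold change of -0.48. With DV200 as a covariate 2 genes of the list passed, in place of 11, and 5.91% of all tested genes. JAK3, the kinase bound to the common gamma chain, lay at -1.38 on the log2 scale (SE 0.22, BY adjusted p = 0.0141 in limma), and SIGIRR, a brake on IL-1 family receptors, at -1.57 (SE 0.22, BY adjusted p = 0.0102 in limma). These were the 2 called by BY and 2-fold. STAT4, which is activated by IL-12, had -1.81 (SE 0.59; limma, BH adjusted p = 0.0362), and STAT3, used by IL-6, IL-10 and IL-21, -0.63 (SE 0.13; limma, BH adjusted p = 0.00438). STAT6, the factor used by IL-4 and IL-13, had -0.38 (SE 0.11; limma, BH adjusted p = 0.0252), while IL13RA1 above it was higher in early CCH. IRAK4, the kinase recruited to IL-1 family receptors, was the one higher in early CCH, at 0.67 (SE 0.15; limma, BH adjusted p = 0.00771). MYD88 and TRAF6, of the same cascade, had 0.17 and -0.02 (limma, BH adjusted p = 0.376 and 0.932). The T cell and B cell markers moved the same way as the 10, and their part in these values was not tested.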

How the data were processed

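Total RNA from 10 FFPE tumours was hybridised to the nCounter Canine IO Panel. The authors scaled the counts in nSolver to positive controls and then to 20 housekeeping genes, so the deposited values are a normalized signal on a linear scale for 800 genes, beside 14 control probes that were left unscaled. No background subtraction was stated. Gene values were whole multiples of a step in each sample, and at least 99.4% divided by it gave whole numbers within 0.0051 in the deposited value. These recovered counts served for depth. For the background, the unscaled control values were multiplied by the step of their sample, which takes them to be on the scale of the recovered counts. No count test was run, because the control probes of the same columns were left unscaled. All columns were mapped to samples by the sample identifier that heads them, and stage and replicate number were taken from the titles.

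The deposited signal was taken to log2(value + 1). Genes with a mean of at least 20 were fitted with limma 3.58.1 (lmFit, eBayes with trend) in R 4.3.3, with late CCH as baseline. A gene was called at a BY adjusted p of at most 0.05 and a change of at least 2-fold, the thresholds of the study's methods, and BH adjusted p-values are given beside it. Both run over all 761 tested genes, never over the members alone. The fit is not the study's, which tested its nCounter data with the Advanced Analysis plug-in of nSolver. With BY adjustment the study reported no differentially expressed gene between the CCH stages by nCounter. The reason for this difference was not tested. Single values per sample were compared by exact permutation over samples with scipy 1.17.1. The scripts were tested on simulated data. The alternatives were other pseudocounts, filters, scalings and backgrounds, variance models, DV200, the extraction batch as a random block, the replicate number as a block and each sample left out.

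The members and lists were chosen with earlier results of these data known. Genes named by rule were those called, the members past BH, a set of reference cytokines, the extremes of each class and those with a sample far from its stage. Other members were named after their values were seen. All 55 symbols matched the RefSeq gene table of UU_Cfam_GSD_1.0, used for names and gene order only. P-values measure the spread between 5 dogs per stage.

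Marker lists stood beside the results. Of the tested Langerhans and dendritic cell markers 2 were higher in early and 1 in late CCH by BH, of macrophage markers 2 in late, of mast cell markers 2 in early, of endothelial markers 1 in late, and of neutrophil and keratinocyte markers none.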

Additional observations from a re-analysis of the deposited data

Results flagged for a closer look

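In 6 of the 110 sets of 5 values checked (55 members in 2 stages), 1 sample lay far from the others of its stage, that is 5.45%, where chance gives about 5%. Over all tested genes 8.54% of the sets did. The gap to the nearest other sample, as a share of the whole range of the stage, is given for each.

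IL1B stood at 188 normalized counts in early 2, with the remaining early tumours at 13.2 to 37.9 (0.859), and at 73.0 in late 2, with the remaining late tumours at 7.44 to 22.7 (0.768). IL6 was 1496 in early 2 against 51.1 to 203 (0.895). IL17F, a relative of IL17A made by T helper 17 cells, was 61.1 in early 2 against 23.3 to 30.3 (0.813), on 36 recovered counts. IL32 was 153 in late 3 against 93.8 to 108 (0.763). IL1RL1 was 445 in early 5 against 71.6 to 156 (0.773).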

How the results depend on the processing

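The call of IL13RA1 held in every alternative except DV200 as a covariate (0 interleukin genes called, 0 on the panel) and the replicate block. Interleukin genes called were 4, 2 and 3 with geometric mean, total and quantile scaling (IL24, IL29L, IL4 and IL1A being added in 1 or more), and 3 with the extraction batch as a random block. As no batch held both stages, that fit cannot separate batch from stage. Its correlation within batches was -0.138. Panel calls ran from 39 to 98 with 1 sample left out, against 85. Ligands past BH, 5 in the deposited values, were 15, 11 and 10 under the 3 scalings, 0 with DV200, 8 with the extraction batch and 3 to 6 with 1 sample left out. In the same fits 45.3%, 41.7%, 42.6%, 5.91% and 42.2% of all tested genes passed, against 35.7%. Receptors past BH, 3 in the deposited values, were 11, 6, 10 and, with DV200, 1. The signalling list, with 11 past BH, gave 2 with DV200. All these DV200 fits used the labels' values, of which that of late 5 differs from the study's supplement. The cause was not tested.

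The ligand median was 0.68 with geometric mean scaling, 0.029 on the common background floor and -0.16 after subtracting the negative probe mean, an alternative added after seeing the data. The receptor median was 0.76, 0.64 and 0.82 under the 3 scalings and 0.14 with DV200. Ligands above background differed by -2.8, -0.2 and 4.4 with 3 SD, the highest negative probe and 20 normalized counts, and by -3.05 to -2.05 with 1 sample left out. For receptors the difference was 0.8 with the highest negative probe and with 20 counts.

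Signs turned for IL12A (0.26, 0.14 and 0.21 under the 3 scalings, -0.26 to 0.15 with 1 sample left out) and IL12B (0.34 and 0.23 with geometric mean and total scaling, 0.15 with array weights, 0.29 with DV200, 0.012 with the extraction batch, -0.41 to 0.37 with 1 sample left out). They also turned for IL2 (0.15, 0.028 and 0.32 under the 3 scalings), IL17F (-0.26 after subtraction), IL18 (0.038), IL1RN (-0.25) and IL1RL1 (-0.34) with DV200, IL1RL1 without early 5 (-0.037 to 0.68 over the samples left out) and IL6 (-0.014 with array weights, -0.35 to 0.86 with 1 sample left out).

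Replicate numbers did not pair the samples: deviations of same-numbered samples correlated at -0.199 to 0.159. With the replicate block, 1 panel gene and 0 interleukin genes were called by BY and 2-fold. By BH, 7 genes of the signalling list and 9 members passed, IL10RA being lost and IL1B and IL1R2 added. At 5 samples a stage and with many members near background, a member that missed the threshold is not shown to be equal between the stages.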
